A study of Mus musculus with 10 samples.

Results

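The genes described here are those of potassium channels and their auxiliary subunits, taken as every gene whose symbol begins with *Kcn*. The antisense RNAs *Kcnq1ot1*, *Kcnd3os*, *Kcnmb4os1* and *Kcnmb4os2* were left out. Of the 24453 genes counted, 94 were members, and 56 of these had at least 1 read in any library.

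Potassium channels let potassium leave the cell along its gradient, and so hold the resting potential, end the action potential and set how often a neuron fires. Pore-forming subunits are opened by voltage, by calcium or by G proteins, or conduct at rest, and auxiliary subunits without a pore change their gating and their transport to the membrane. In pyramidal neurons of layer 5, A-type current through Kv4 channels and their KChIP partners is known to dampen action potentials that travel back into the dendrites.

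The data were RNA-seq read counts of intratelencephalic projection neurons (IT-PNs) of layer 5 of the primary motor cortex. IT-PNs were labelled with the retrograde tracer CTB647, injected into the left hemisphere at P23 to P25, and collected from the right hemisphere at P28 to P32. Cells with tracer were sorted by GFP into *Fezf2+ve* IT-PNs (GFP and tracer) and *Fezf2−ve* IT-PNs (tracer alone). Each of 5 animals gave 1 library of each type, so that 10 libraries formed 5 pairs, and no animals were pooled. All animals were hemizygous for the transgene of the line (Zfp312-EGFP)CO61GsatMmnc on a Swiss Webster background, so the types differ in GFP in the sort and in no treatment. GFP there is driven by *Fezf2* regulatory sequence of a transgene, which stands in for *Fezf2* itself. The *Fezf2* transcript had 1 read, in *Fezf2+ve* library 5.

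What sets a pore-forming subunit apart is the selectivity filter, a loop with the codons glycine, an aromatic residue or leucine, and glycine. The longest coding sequence of each member (GENCODE release 21, GRCm38) was searched in frame for GGN, a codon for tyrosine, phenylalanine or leucine, and GGN. A codon for threonine or serine and a codon for valine, isoleucine, leucine, threonine or phenylalanine had to precede it. The signature was found in 77 of the 94 members, against 285 of 19898 other genes with a coding sequence (1.43%). The 17 members without it were the Kv beta, KChIP and MinK-related subunits, the 4 beta subunits of the BK channel and *Kcnrg*. All 14 *Kcnk* genes had 2 signatures, one for each pore loop of their subunit, and every other pore-forming member had 1. The stretches of 4 pore-forming members, chosen because their reads are described at length, are shown with the 3 signature codons in capitals.
Kcnk13, first pore loop: accataGGGTTTGGG
Kcnk13, last pore loop: accattGGCTTCGGG
Kcnd2: acactgGGGTATGGC
Kcnd3: acactgGGATATGGA
Kcnma1: acagtgGGTTATGGG
In *Kcnk13* (plus strand) the first stretch is split by an intron into chr12:99966274-99966280 and chr12:100061002-100061009, and the last lies in 1 exon at chr12:100061376-100061390. An intron also split the signature of *Kcnd2* (chr6:21217406-21217413 and chr6:21714135-21714141, plus strand) and *Kcnd3* (chr3:105459914-105459921 and chr3:105658611-105658617, plus strand). The stretch of *Kcnma1* is at chr14:23528413-23528427 on the minus strand. Of the 89 signatures placed on the genome (those of *Kcnn2* and *Kcng2* were not used here), 17 were split in this way, namely the first of all 14 *Kcnk* genes and that of all 3 *Kcnd* genes. Members with the signature held 8409 of the 9138 *Kcn* reads and members without it 729. Reads were seen for 45 of 77 members with the signature and for 11 of 17 without.

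The libraries were shallow, with 118134, 107643, 118069, 151591 and 203379 reads on genes in *Fezf2+ve* libraries 1 to 5, numbered by animal. The *Fezf2−ve* libraries had 167916, 89138, 168711, 211368 and 217738 reads. In a single library 3 reads, the upper limit that a count of 0 allows, stood for 13.8 to 33.7 CPM (read counts scaled to a common library total), and over all 10 libraries for 1.93 CPM. Such limits and intervals cover counting error only, since reads copied by amplification are not independent molecules. The 38 members without a read were therefore not detectable at this depth, which does not show them to be absent.

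Reads on *Kcn* genes numbered 364, 1219, 438, 155 and 1186 in *Fezf2+ve* libraries 1 to 5, and 169, 4910, 300, 168 and 229 in *Fezf2−ve* libraries 1 to 5. *Fezf2−ve* library 2 stood apart from the others, with 5.51% of its gene reads on members (95% Wilson interval 5.36% to 5.66%), and 4751 of its 4910 *Kcn* reads were on *Kcnk13* alone. The other 9 libraries had between 0.0795% (*Fezf2−ve* library 4, interval 0.0683% to 0.0924%) and 1.13% (*Fezf2+ve* library 2, lower bound 1.07%). A single gene also led the *Kcn* reads of *Fezf2+ve* library 2 (*Kcnn2*, 91.9%), *Fezf2+ve* library 5 (*Kcnd3*, 86.0%), *Fezf2+ve* library 1 (*Kcnip3*, 70.3%) and *Fezf2−ve* library 3 (*Kcnk13*, 69.3%). In the remaining libraries the leading member held 17.9% to 39.0%.

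**Figure D1:**
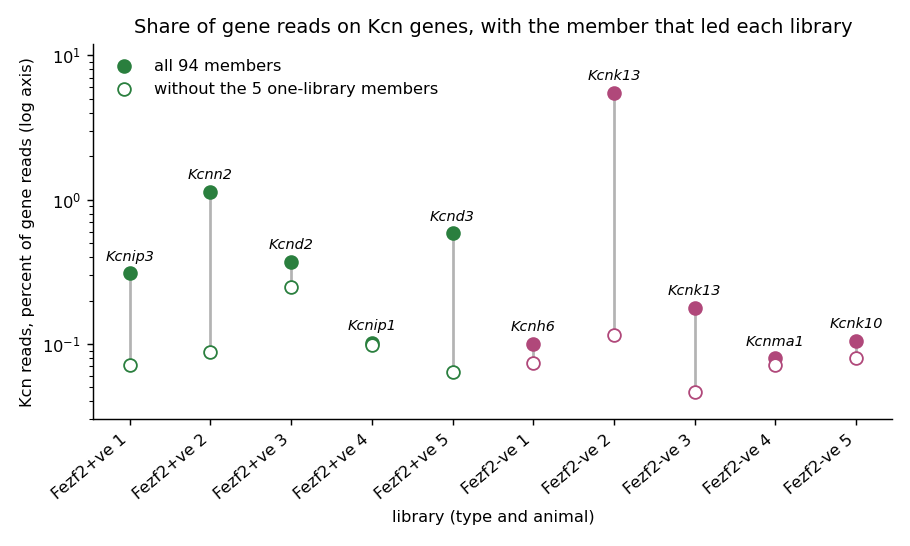
Percent of gene reads on *Kcn* genes in each of the 10 libraries, on a log axis, for all 94 members (filled) and without the 5 members that had 80% or more of at least 50 reads in 1 library (open); the name is the member with the most reads. *Fezf2−ve* library 2 (purple) is highest at 5.51%.

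The share averaged 0.499% ± 0.393 over the *Fezf2+ve* libraries and 1.19% ± 2.41 over the *Fezf2−ve* libraries (SD, n = 5 each), a difference of -0.695 percentage points with an SD of 2.06 over the animals. The sign of this difference came from animal 2. Without animal 2 it was 0.225 (SD 0.188) and positive in 4 of 4 animals, and without *Kcnk13* it was 0.394 (SD 0.347) and positive in 5 of 5. Without the 5 members that had 80% or more of at least 50 reads in 1 library, it was 0.0359 (SD 0.0964) and positive in 2 of 5. This value rested on animal 3, without which it was -0.00606 (SD 0.0253) and positive in 1 of 4. As the plot of shares by library shows, the open symbols of both types then overlap, with means of 0.115% ± 0.0770 and 0.0786% ± 0.0274 of the remaining gene reads (SD, n = 5 each).

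These 5 members were *Kcnk13* (94.8% of its reads in 1 library), *Kcnn2* (96.2%), *Kcnd3* (90.1%), *Kcnrg* (87.9%) and *Kcnip3* (81.3%), and they held 7756 of the 9138 *Kcn* reads (84.9%). Such piling was common in these data. Of the 12 members with 50 reads or more, 5 (41.7%) had 80% of them in 1 library, beside 891 of 2359 genes of the whole table (37.8%). The median share of the leading library was 69.3% for those members and 67.7% for those genes. Among the 38 ERCC spike-in transcripts with 50 reads or more it was 39.1%, and 1 (2.63%) had 80% in 1 library. These shares are of raw reads. ERCC reads ran from 6251 in *Fezf2−ve* library 5 to 103498 in *Fezf2+ve* library 1, so the ERCC shares also carry that imbalance. Why reads of a gene gathered in 1 library was not tested.

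The number of members with a read differed little between the types: 20, 35, 31, 23 and 27 in *Fezf2+ve* libraries 1 to 5, and 30, 23, 28, 36 and 29 in *Fezf2−ve* libraries 1 to 5. The means were 27.2 ± 6.02 and 29.2 ± 4.66 (SD, n = 5 each), a gap smaller than the spread between libraries. Reads in both types were found for 42 members, in *Fezf2+ve* alone for 5 and in *Fezf2−ve* alone for 9, none of which was abundant enough to be tested. Read in all 10 libraries were *Kcnab1*, *Kcnd2*, *Kcnd3*, *Kcnh1*, *Kcnip1*, *Kcnma1* and *Kcnn2*.

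In the fit with the animal as a block, *Kcnip3* had the highest and *Kcnk13* the lowest log2 fold change of the members with more than 3 reads in a library. *Kcnma1* was the only tested member higher in the *Fezf2+ve* library of every animal. Without the block *Kcnn2* (5.08) was above *Kcnip3* (4.91). None of the members passed the test over all genes. Of the 94 members, 34 had at least 10 CPM in at least 2 libraries and were tested with the animal as a block, all of them with reads in both types. At a false discovery rate (FDR, Benjamini-Hochberg) of 0.1 or less, the quasi-likelihood test of edgeR called 0 of 34, beside 0 of all 7409 genes tested (0.0%). Before adjustment, 1 of 34 (*Kcnip3*) and 288 of 7409 genes (3.89%) had a p under 0.05.

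Other tools called 1 member each at an FDR of 0.1 or less. Without the block, edgeR's quasi-likelihood test called *Kcnk13* among 279 genes (3.77%), and with the block DESeq2 called *Kcnip3* among 98 genes (1.32%), both adjusted by Benjamini-Hochberg. DESeq2's filter on low means left an adjusted p for 1664 genes, of which the 98 are 5.89%, and for 11 of the 34 members. Unadjusted p values under 0.05 were found for 5 of 34 members without the block, where 1345 of 7409 genes (18.2%) had one, and for 2 of 34 by DESeq2, beside 302 genes (4.08%). *Kcnma1* was 1 of 34 members with the same direction in all 5 animals, a pattern shown by 304 of 7409 genes (4.1%). The libraries of the types did not overlap for 0 of 34 members and for 108 of 7409 genes (1.46%). Beside these shares of all genes, counts of 0 or 1 of 34 do not set the members apart.

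**Figure D2:**
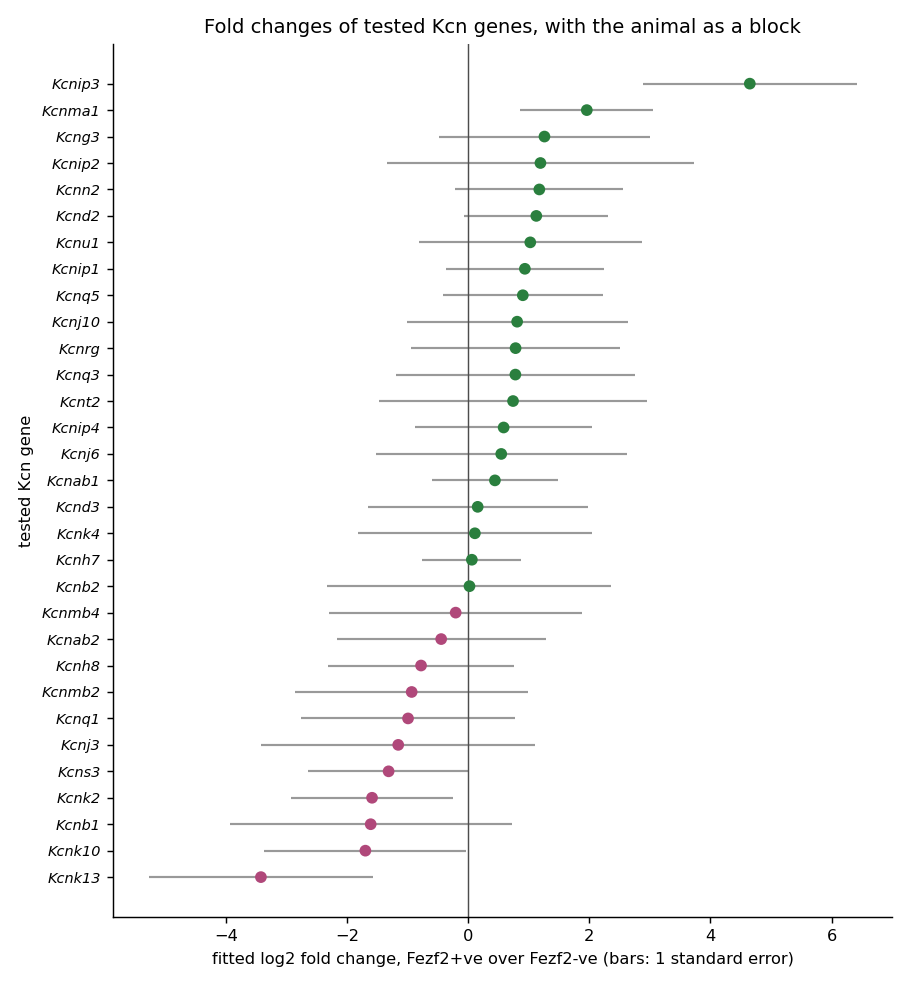
Fitted log2 fold changes between the types (above 0, higher in *Fezf2+ve*) of 31 tested *Kcn* genes, with the animal as a block, points as estimates and bars as 1 standard error. *Kcnip3* is highest at 4.65 and *Kcnk13* lowest at -3.42, and tested members with at most 3 reads in every library or with no standard error are not drawn.

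The fitted log2 fold changes of the tested members had a median of 0.43, beside -0.16 for all 7409 genes. Of the members 23 were above 0 (67.6%) and 11 below, beside 3388 genes above 0 (45.7%) and 4021 below in the whole fit. Over the 32 members with more than 3 reads in a library the median was 0.30. Over all tested members it was 0.00 without animal 2 and 0.03 without animal 5, beside -0.31 and -0.29 for all tested genes. In the plot of fold changes *Kcnip3*, *Kcnk13*, *Kcnma1*, *Kcnk10* and *Kcnk2* lie farther from 0 than 1 standard error. The share of all tested genes that do so was not counted, so this does not set them apart. Over all 31 members drawn, the standard errors had a lowest value of 0.82 and a highest of 2.53 on the log2 scale.

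**Figure D3:**
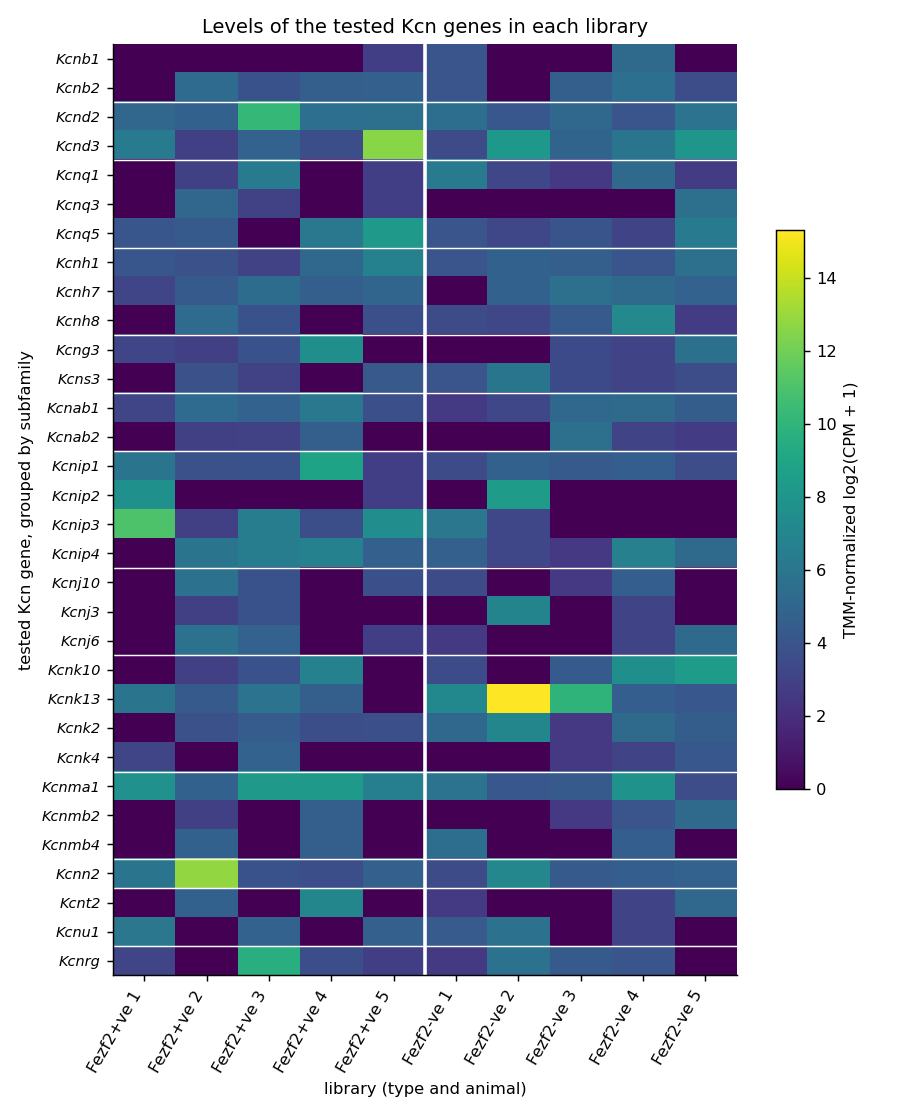
TMM-normalized log2(CPM + 1), not divided by gene length, of the 32 tested *Kcn* genes with more than 3 reads in a library, by subfamily in the 10 libraries, with *Fezf2+ve* left of the white line. Single bright cells mark *Kcnk13* in *Fezf2−ve* library 2, *Kcnn2* in *Fezf2+ve* library 2, *Kcnd3* in *Fezf2+ve* library 5 and *Kcnip3* in *Fezf2+ve* library 1.

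Kv4 pore subunits carry the fast A-type current. *Kcnd3* (Kv4.3) had 9, 1, 4, 1 and 1020 reads in *Fezf2+ve* libraries 1 to 5, and 2, 33, 6, 8 and 48 in *Fezf2−ve* libraries 1 to 5. *Fezf2+ve* library 5 alone was high, and the other 9 libraries of both types overlapped. With a standard error of 1.82 its log2 fold change of 0.16 had no firm sign, and it was -0.99 without animal 1 and -1.20 without animal 5, and 3.28 with no block for the animal. *Kcnd2* (Kv4.2) had 4, 4, 171, 4 and 8 reads in *Fezf2+ve* and 9, 2, 7, 2 and 10 reads in *Fezf2−ve* libraries, so that again 1 library, *Fezf2+ve* 3, was high. Its log2 fold change was 1.12 (standard error 1.19), but 0.29 without animal 3, and 2.96 with no block for the animal. The remaining gene, *Kcnd1*, had 0 reads.

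KChIPs are calcium-binding EF-hand proteins that bind the start of Kv4 subunits, and all 4 genes had reads. *Kcnip3*, which encodes KChIP3, also known as DREAM and calsenilin (chr2:127456498-127522094, minus strand), had 256, 1, 13, 1 and 30 reads in *Fezf2+ve* libraries 1 to 5 and 13, 1, 0, 0 and 0 in *Fezf2−ve* libraries. *Fezf2+ve* library 1 was far above the rest, 3 *Fezf2−ve* libraries had no read, and the types overlapped. On the TMM-normalized log2(CPM + 1) scale its mean level was 6.33 ± 3.25 in the *Fezf2+ve* libraries, against 1.87 ± 2.74 in the others (SD, n = 5 each). *Kcnip3* was higher in *Fezf2+ve* in 4 of 5 animals. An exact permutation of the paired levels gave p = 0.125 (two-sided, n = 5 pairs), where 1 in 16 is the smallest p that 5 pairs allow.

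The fitted log2 fold change of *Kcnip3* was 4.65 (standard error 1.77), with an unadjusted p of 0.0175 and an adjusted p of 0.998 (edgeR's quasi-likelihood test, Benjamini-Hochberg). DESeq2 with the block gave a Benjamini-Hochberg adjusted p of 0.0553, and over all alternatives that p was 0.0553 to 1.00. Leaving out animals in turn gave log2 fold changes of 3.91 to 5.81, all positive. The unadjusted p of the same edgeR test was 0.0989 without animal 1, 0.0882 without animal 3 and 0.0872 without animal 5. By the same test it was 0.00784 without animal 2 and 0.0404 without animal 4.

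For the other KChIP genes, a difference from *Kcnip3* was not tested. *Kcnip2* had 25, 0, 0, 0 and 1 reads in *Fezf2+ve* and 0, 40, 0, 0 and 0 in *Fezf2−ve* libraries, so that nearly all of its reads came from 1 library of each type. *Kcnip1* had 7, 2, 2, 41 and 1 reads in *Fezf2+ve* and 2, 3, 4, 3 and 2 in *Fezf2−ve* libraries, with only *Fezf2+ve* library 4 high. *Kcnip4* was spread more evenly, with 0, 9, 13, 9 and 4 reads in *Fezf2+ve* and 5, 1, 1, 13 and 7 in *Fezf2−ve* libraries. Their log2 fold changes were 1.19 (standard error 2.53), 0.94 (1.30) and 0.59 (1.46) in the order *Kcnip2*, *Kcnip1*, *Kcnip4*. The sign for *Kcnip2* was negative without the block, after downsampling and without animal 5, and that for *Kcnip4* was negative without animal 2 or animal 3. That of *Kcnip1* was 0.03 without animal 4, 0.35 without animal 1 and 1.41 without animal 2, and with no block 2.62 (unadjusted edgeR p 0.0409).

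*Kcnk13* encodes THIK-1, a tandem-pore channel that conducts at rest and is well known from microglia, where it sustains their surveillance of the tissue (chr12:99964499-100062682, plus strand). It had 7, 3, 8, 2 and 0 reads in *Fezf2+ve* libraries 1 to 5 and 28, 4751, 208, 3 and 3 in *Fezf2−ve* libraries 1 to 5. *Fezf2−ve* libraries 1 to 3 were above every *Fezf2+ve* library, while *Fezf2−ve* libraries 4 and 5 lay within their range. In *Fezf2−ve* library 2 *Kcnk13* held 5.33% of all gene reads and ranked 4 among all genes. On the log2(CPM + 1) scale its mean level was 4.13 ± 2.41 in the *Fezf2+ve* libraries, against 8.24 ± 4.59 in the others (SD, n = 5 each).

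With the animal as a block the log2 fold change of *Kcnk13* was -3.42 (standard error 1.85), with an unadjusted p of 0.0805 and an adjusted p of 0.998 (edgeR's quasi-likelihood test, Benjamini-Hochberg). It was higher in *Fezf2−ve* in 4 of 5 animals, and the exact permutation p was 0.125 (two-sided, n = 5 pairs). Without the block the log2 fold change was -8.04 (standard error 2.23), and the Benjamini-Hochberg adjusted p was 0.0931 in the same edgeR test, beside 0.0784 to 1.00 over all alternatives. Without animal 2 the blocked log2 fold change was -2.27 (standard error 1.43).

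Markers of microglia differed in their summed share between the types. All 18 of 18 microglial marker genes had reads, and their summed share of gene reads was 0.0305%, 0.0204%, 0.0110%, 0.00792% and 0.0157% in *Fezf2+ve* libraries 1 to 5. In *Fezf2−ve* libraries 1 to 5 it was 0.773%, 0.573%, 0.799%, 0.228% and 0.418%, so that the types did not overlap. *Fezf2−ve* library 2, with 4751 reads of *Kcnk13*, was below *Fezf2−ve* libraries 1 and 3 in marker share, and *Fezf2−ve* libraries 4 and 5 had 3 reads of *Kcnk13* each. The gene with the most reads was *Ctss*, with 17.5% of the list, and no marker was at 0 in all libraries. All 18 had a negative fitted log2 fold change (median -4.79), 14 with an unadjusted p under 0.05, and 0 were called with the block (edgeR's quasi-likelihood test, Benjamini-Hochberg). Without the block 12 were called, and by DESeq2 with the block 13 of the 14 with an adjusted p. Of the 5 blood markers, led by *Hbb-bs*, all had reads, but *Hba-a1* and *Hba-a2* had the same counts in every library and are not separate measurements. The 4 blood markers tested had negative log2 fold changes (median -4.01) and unadjusted p under 0.05, and 0 were called with or without the block and 2 by DESeq2. The part of the microglial and blood markers in the level of *Kcnk13* was not tested. In bulk libraries a change in the number of cells of a type cannot be told apart from a change in RNA per cell.

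**Figure D4:**
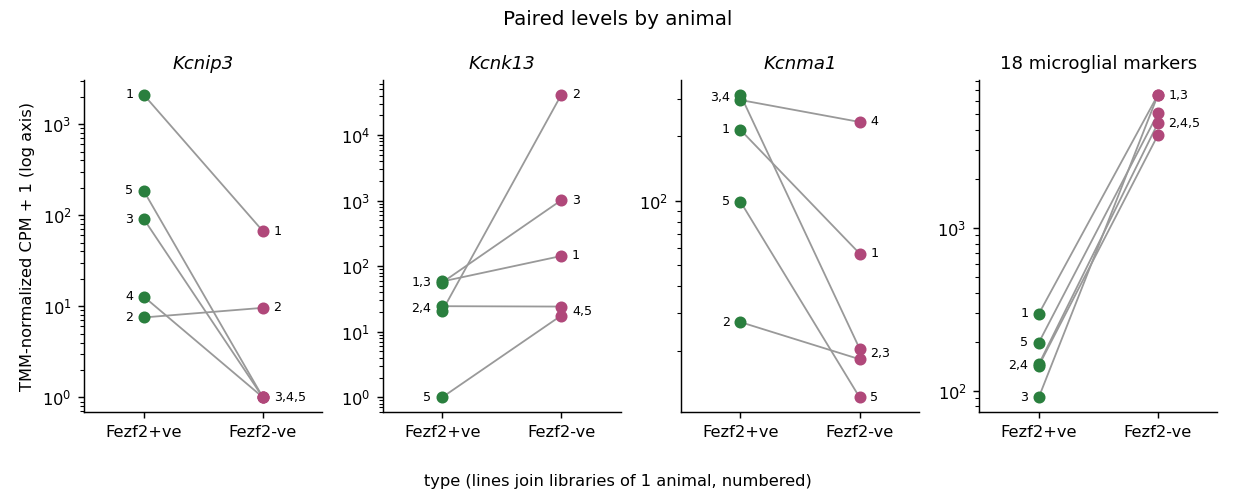
TMM-normalized CPM + 1 on log axes for *Kcnip3*, *Kcnk13*, *Kcnma1* and the summed reads of 18 microglial markers in *Fezf2+ve* (green) and *Fezf2−ve* (purple) libraries, with lines joining the libraries of 1 animal. *Kcnma1* is higher in *Fezf2+ve* in 5 of 5 animals, and the marker sums do not overlap between the types.

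Markers of neurons were sparse in both types. Of 6 neuronal markers 5 had reads (*Nefl* had 0), with 40, 43, 25, 5 and 12 reads in *Fezf2+ve* libraries 1 to 5 and 7, 7, 12, 16 and 8 in *Fezf2−ve* libraries 1 to 5. *Syt1* was the most abundant, with 72 reads. Of the 4 tested, 3 had a positive log2 fold change (median 1.72), 0 had an unadjusted p under 0.05 and 0 were called by edgeR, with or without the block, and DESeq2 gave none of them an adjusted p. All 4 markers of cortical excitatory neurons had reads, but *Camk2a* held 94.1% of them and 529 of its 588 reads were in *Fezf2−ve* library 3. Of 6 interneuron markers, led by *Gad2* with 6 reads, *Slc32a1*, *Pvalb* and *Vip* were at 0.

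The remaining tandem-pore channels, which set the resting conductance, each had fewer reads than *Kcnk13*, and 8 of 14 *Kcnk* genes had reads. *Kcnk10* (TREK-2) had 0, 1, 2, 9 and 0 reads in *Fezf2+ve* libraries and 2, 0, 4, 25 and 61 in *Fezf2−ve* libraries 1 to 5. *Fezf2−ve* libraries 4 and 5 were high, the types overlapped, and the log2 fold change was -1.70 (standard error 1.67), or -0.71 without animal 5. *Kcnk1*, *Kcnk3*, *Kcnk7*, *Kcnk9*, *Kcnk15* and *Kcnk16* had 0 reads.

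*Kcnma1* encodes the pore of the BK channel, which is opened by calcium together with voltage and shortens action potentials (chr14:23289431-24014491, minus strand). It had 26, 4, 45, 25 and 16 reads in *Fezf2+ve* libraries 1 to 5 and 11, 2, 4, 30 and 2 in *Fezf2−ve* libraries 1 to 5. No library held more than 27.3% of its reads, and among members with 50 reads or more only *Kcnip4* was spread more evenly by this measure. On the log2(CPM + 1) scale its mean level was 7.13 ± 1.48 in the *Fezf2+ve* libraries, against 5.17 ± 1.72 in the others (SD, n = 5 each), and the types overlapped.

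The paired difference of these levels averaged 1.96 with an SD of 1.55 over the animals. The fitted log2 fold change of *Kcnma1* was also 1.96, with an unadjusted p of 0.0897 and an adjusted p of 0.998 (edgeR's quasi-likelihood test, Benjamini-Hochberg). Its exact permutation p (two-sided, n = 5 pairs) was the smallest that 5 pairs allow, 1 in 16. Any gene with the same direction in all 5 animals has this p. As *Kcnma1* was named for that direction, the p adds nothing to it. Leaving out animals in turn gave log2 fold changes of 1.40 to 2.40. Of the beta subunits of this channel *Kcnmb4* had 18 reads, *Kcnmb2* 13 and *Kcnmb1* 0.

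SK channels respond to calcium alone and carry a part of the afterhyperpolarization. *Kcnn2* (SK2) had 7, 1120, 2, 1 and 4 reads in *Fezf2+ve* libraries and 2, 16, 4, 3 and 5 in *Fezf2−ve* libraries 1 to 5. Only *Fezf2+ve* library 2 was high, where *Kcnn2* ranked 12 among all genes, and the direction was positive in 2 of 5 animals. The log2 fold change of 1.17 (standard error 1.39) rested on that library's animal, since it was 0.18 without animal 2. It was 0.65 without animal 1, and 5.08 with no block for the animal. The other 3 *Kcnn* genes had 4 reads in all libraries together. Of the sodium-activated channels *Kcnt2* (Slick) had 23 reads, 11 of them in *Fezf2+ve* library 4, and *Kcnt1* (Slack) had 0.

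Kv7 subunits carry the M-current, which acetylcholine closes. All 5 *Kcnq* genes had reads, most of them *Kcnq5*, with 2, 3, 0, 6 and 50 reads in *Fezf2+ve* and 3, 1, 3, 1 and 15 in *Fezf2−ve* libraries 1 to 5. Library 5 of both types was the high one, and the log2 fold change was 0.90 (standard error 1.32). Without animals 3, 4 or 5 it was 1.52, 0.30 or 0.41, and with no block for the animal 1.64. *Kcnq3*, which also forms M-channels, had 16 reads, 9 of them in *Fezf2−ve* library 5.

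The subunits related to EAG and ERG, which open slowly with voltage, had reads for 7 of 8 *Kcnh* genes. *Kcnh1* was read in all 10 libraries, with 2, 2, 1, 3 and 17 reads in *Fezf2+ve* and 3, 3, 5, 2 and 9 in *Fezf2−ve* libraries, and its log2 fold change was 0.01. Of the 32 reads of *Kcnh6*, 31 were in *Fezf2−ve* library 1.

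The delayed rectifiers of fast-firing and axonal membranes were nearly without reads. Of the 8 Kv1 genes 2 had reads, 7 in all, with *Kcna6* first at 5. Of the 4 Kv3 genes 2 had reads, 8 in all, with 4 each on *Kcnc2* and *Kcnc4*. Among the Kv2 genes *Kcnb2* had 30 reads, at most 6 of them in a library, and its log2 fold change of 0.02 had a standard error of 2.35. The silent subunits that join Kv2 channels had reads for 5 of 10 genes, led by *Kcng3* with 33 reads and 17 of them in *Fezf2+ve* library 4.

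Inward rectifiers had reads for 5 of 15 genes and 64 reads in all. *Kcnj6* (GIRK2, opened by G proteins) led with 22 reads. *Kcnj10* (Kir4.1), known from astrocytes, had 0, 8, 2, 0 and 2 reads in *Fezf2+ve* and 2, 0, 1, 3 and 0 in *Fezf2−ve* libraries 1 to 5. Its highest library, *Fezf2+ve* 2, was also the one with the highest share of astrocyte markers (0.739%, list of 8 genes, 7 with reads in any library and *Gfap* at 0). *Slc1a2* alone had 778 of the 796 marker reads there. *Slc1a3* was highest in *Fezf2+ve* library 4, with 238 reads, where *Kcnj10* had 0. *Fezf2+ve* library 2 also had the highest share of oligodendrocyte (1.03%), oligodendrocyte precursor (0.263%), neuronal (0.0399%) and endothelial and mural (0.00743%) markers. The match with *Kcnj10* was therefore not particular to astrocyte markers. The part of these markers in the reads of *Kcnj10* was not tested.

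Among auxiliary subunits other than KChIPs, the Kv beta gene *Kcnab1* was read evenly across libraries. It had 1, 6, 4, 6 and 2 reads in *Fezf2+ve* and 1, 1, 7, 5 and 4 in *Fezf2−ve* libraries, with at most 18.9% of its reads in a library. Its log2 fold change was 0.44, with a standard error of 1.03. The 5 MinK-related *Kcne* genes, which modify Kv7 and ERG channels, had 0 reads.

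Some members share their position with another gene, and the sources used here give no strand setting for the counting, so reads in a stretch shared by both genes cannot be told apart. *Kcnrg*, a regulator related to the assembly domain of Kv channels (chr14:61607457-61612826, plus strand), overlaps the gene *Dleu2* on the other strand. It had 116 of its 132 reads in *Fezf2+ve* library 3, where *Dleu2* had 117. *Kcnq1* had 16 reads in *Fezf2−ve* library 1, where the imprinted antisense RNA *Kcnq1ot1* had 15, and 12 in *Fezf2+ve* library 3, where it had 0. *Kcnmb4* had 9 reads in *Fezf2−ve* library 1, where its antisense partner *Kcnmb4os1* had 7. *Kcnh1* (47 reads) overlaps *Hhat* on the other strand (30 reads, 0 of them in *Fezf2+ve* library 5 where *Kcnh1* had 17), and *Kcnab1* (37 reads) overlaps an antisense gene with 26. *Kcnd3os*, antisense to *Kcnd3*, had 0 reads, so the reads in *Fezf2+ve* library 5 are not shared with it.

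Which members were seen followed the length of the gene in the genome more than the length of its exons. Of the members that span under 10 kb 3 of 23 had reads, of those from 10 to 50 kb 18 of 35, of those from 50 to 100 kb 12 of 13, and of those of 100 kb or more 23 of 23. In the whole table reads were found for 29.7%, 70.0%, 91.3% and 97.5% of genes in the same classes. The median span was 67.7 kb for members with reads and 8.59 kb for those without, the longest of which was *Kcnt1* at 54.5 kb.

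**Figure D5:**
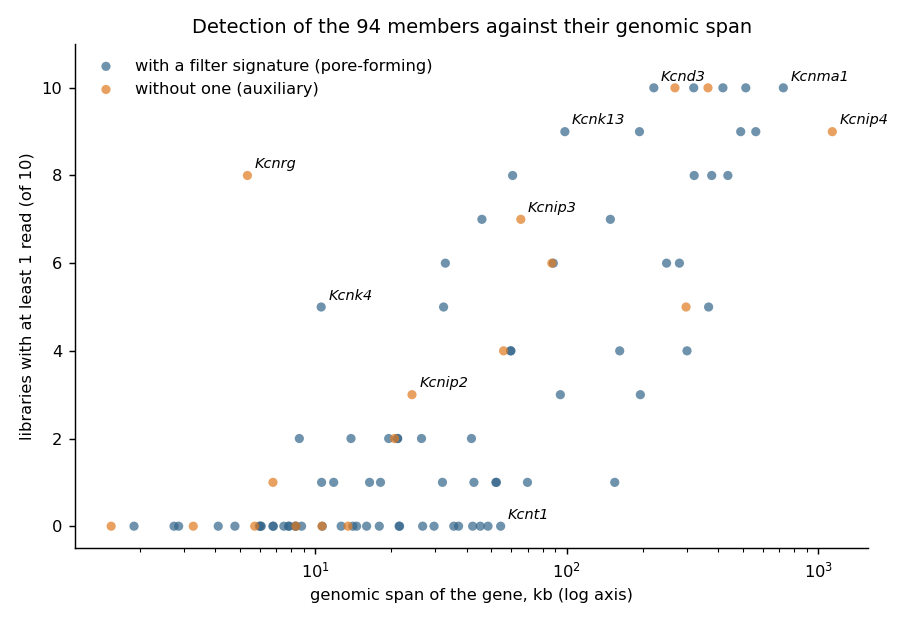
Number of libraries (of 10) with at least 1 read of each of the 94 members against the genomic span of the gene in kb, on a log axis, in blue with and in orange without a filter signature. Every member of 100 kb or more had reads, and *Kcnrg*, which overlaps *Dleu2*, is the short gene seen in 8 libraries.

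Across the 94 members the number of libraries with a read had a Spearman correlation of 0.769 with the span and of 0.401 with the exonic length, and across 23466 genes of the table that with the span was 0.607. Genes are not independent replicates, and all share the same 10 libraries and depths. Among the short genes without a read were *Kcna1*, *Kcnj9* and *Kcnf1*, each under 10 kb, while *Kcnip4*, with 62 reads, had the longest span of all members.

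Proteins that bind, anchor or place potassium channels were read from the same fit. Of 27 such genes 24 had reads and 17 were tested, 8 with a positive and 9 with a negative log2 fold change (median -0.19). With the block 0 of 17 were called (edgeR's quasi-likelihood test, Benjamini-Hochberg), 1 had an unadjusted p under 0.05 (3.89% of all tested genes did), and without the block 0 were called. DESeq2 called 1 of the 9 with an adjusted p (5.89% of all genes with one were called), so that these counts do not set the list apart. The gene in both counts was *Akap5*, which encodes the anchoring protein AKAP150 that holds kinases and calcineurin at Kv7 and other channels.

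*Akap5* had 269, 165, 384, 91 and 237 reads in *Fezf2+ve* libraries 1 to 5 and 55, 34, 109, 21 and 8 in *Fezf2−ve* libraries 1 to 5. It was higher in *Fezf2+ve* in 5 of 5 animals, and no library held more than 384 of its 1373 reads. On the TMM-normalized log2(CPM + 1) scale its mean level was 10.63 ± 0.60 in the *Fezf2+ve* and 7.65 ± 1.34 in the *Fezf2−ve* libraries (SD, n = 5 each). The types did not overlap on that scale, as for 1.46% of all tested genes, though they overlapped in raw reads. The log2 fold change was 2.92 (standard error 1.13), with an unadjusted p of 0.0190 and an adjusted p of 0.998 (edgeR's quasi-likelihood test, Benjamini-Hochberg). The exact permutation p (two-sided, n = 5 pairs) was 1 in 16, which only restates the same direction in 5 of 5 animals. DESeq2 gave a Benjamini-Hochberg adjusted p of 0.0581. For the Kv4 partners named here, chosen after their values were seen, the fitted value of *Dpp6* was 0.21 (standard error 1.07) and that of *Dpp10* -0.28 (standard error 1.22) on the log2 scale.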

How the data were processed

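Per the labels and the study's methods, the authors mapped reads to mm10 with TopHat2 2.1.1 and counted reads on RefFlat genes with bedtools 2.26.0. The deposited values used here are these raw counts per gene and per ERCC transcript. A deposited table of the authors' own comparison was not used. Genes that reached 10 CPM in 2 libraries or more were normalized by TMM and tested with edgeR 4.0.16 in R 4.3.3 (quasi-likelihood, animal as a block, FDR of 0.1 or less). DESeq2 1.42.0 was an alternative. Standard errors were calculated back from the F statistic. Libraries with the same number were taken as the same animal, per the study's account of its sample pairs. The correlations of their deviations from the type means were -0.0267 to 0.0970. Named genes were the 12 members with the most reads, tested members with an unadjusted p under 0.05 or the same direction in all 5 animals, the Kcnip genes, the leader of each subfamily, and members with 80% of at least 50 reads in 1 library; other names were chosen after their values were seen. The members and lists were chosen with earlier results of these data known.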

Additional observations from a re-analysis of the deposited data

Results flagged for a closer look

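For each reported measure the most distant library of each type was compared with the other 4 by Dixon's ratio. Of 60 groups of 5 libraries with at least 2 libraries above 0, 14 had a library beyond the critical value, and 2 of the 14 were low values from 0 reads. Chance gives about 1 in 20 only for independent, normally distributed values. Several of these groups rest on the same reads, and shares and low counts are uneven, so 14 of 60 cannot be read against that rate. In 2 further groups, the interneuron markers in *Fezf2+ve* (0.000492% in library 5, a single read) and *Kcnip2* in *Fezf2−ve* (8.43 on the log2 scale in library 2), the other 4 libraries were at 0, so that any read passes and nothing is read from them. The *Kcn* share was 5.51% in *Fezf2−ve* library 2, and without the 5 one-library members it was 0.250% in *Fezf2+ve* library 3.

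Among the gene levels, on the TMM-normalized log2(CPM + 1) scale, the high libraries were 12.84 for *Kcnn2* in *Fezf2+ve* library 2, 10.21 for *Kcnd2* in *Fezf2+ve* library 3 and 6.40 for *Kcnq5* in *Fezf2−ve* library 5. The low ones were 0 for *Kcnk13* in *Fezf2+ve* library 5 and 0 for *Kcnb2* in *Fezf2+ve* library 1. A count of 0 allows up to 3 reads, which other libraries of the type also had or were below, so these depend on the pseudocount and nothing is read from them.

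The marker lists with such a library were those of cortical excitatory neurons (0.0279% of gene reads in *Fezf2+ve* library 1 and 0.326% in *Fezf2−ve* library 3), astrocytes (0.739% in *Fezf2+ve* library 2 and 0.379% in *Fezf2−ve* library 4), oligodendrocytes (1.03% in *Fezf2+ve* library 2 and 0.169% in *Fezf2−ve* library 1) and blood (0.0872% in *Fezf2+ve* library 1, with *Hba-a1* and *Hba-a2* of equal counts both included). The cause of these values was not tested.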

How the results depend on the processing

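With the animal as a block, edgeR's quasi-likelihood test called 0 genes and 0 *Kcn* genes at an FDR of 0.1 or less under each scaling, filter and depth tried, without each animal in turn (0 to 0), and at an FDR of 0.05. With no replicate block, so without the pairing, it called 279 genes and 1 *Kcn* gene, and 0 of either at an FDR of 0.05. DESeq2 with the block called 98 of 1664 genes with an adjusted p, and 1 of 11 such *Kcn* genes. Chosen after seeing the data, the earlier form of the quasi-likelihood fit called 638 genes and 1 *Kcn* gene without the block, and the robust form 0 and 0. *Kcn* genes with an unadjusted p under 0.05 numbered 1 with the block (3.89% of all tested genes), 5 without it (18.2%; 4 in the earlier form, 21.6%, and 5 in the robust form, 18.1%), 2 by DESeq2 (4.08%), 2 after downsampling (2.24%), and 0 to 2 without each animal in turn (2.83% to 3.94%).

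The median log2 fold change of tested *Kcn* genes was 0.43, and 0.00325 to 0.61 without each animal in turn. It was 0.10 with no filter beyond 1 read (56 members), 0.21 by DESeq2, 0.23 at 10 CPM in 5 libraries (18 members), 0.26 after downsampling (40 members), 0.34 with DESeq2 size factors and 0.37 without the block. Over all tested genes it was -0.16, -0.04 after downsampling, and -0.31 to -0.11 without each animal in turn. The difference in *Kcn* share of -0.695 percentage points became 0.547 without the 10 leading genes of each library, 0.394 without *Kcnk13*, and 0.0359 without the 5 one-library members and -0.00606 without these and animal 3 (both chosen after seeing the data). Without each animal in turn it was -0.988 to 0.225. Of 187 values of 12 single genes under 16 settings, 9 changed sign. For *Kcnip2* these were -0.68 without the block (-0.68 in both other forms), -0.32 after downsampling and, without each animal that left it testable, -0.13 to 1.499 (lowest without animal 5). Without each animal in turn *Kcnd3* ranged from -1.20 to 1.32 (negative without animals 1 and 5), and *Kcnip4* from -0.24 to 1.31 (negative without animals 2 and 3). *Kcnip2* could not be tested without animal 1 or 2 or at 10 CPM in 5 libraries, nor *Kcnrg* without animal 3 or under that filter. With no block *Kcnd3* was 3.28, *Kcnn2* 5.08, *Kcnd2* 2.96 and *Kcnip1* 2.62. The causes were not tested. The depth of about 89138 to 217738 gene reads limits every value, and no alternative adds reads.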
